A study of Mus musculus with 2 samples.

Results

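The cytosolic ribosomal proteins of mouse epidermis were followed on 2-colour Agilent microarrays, glass slides on which labelled RNA binds to probes of known sequence. Members were all array names that begin with Rpl or Rps and a number, without the S6 kinases (Rps6k), which gave 88 names on 192 probes of 34821 names on 55681 probes in all. For each name the probe with the brightest mean of both channels was used, and the other probes are described separately. By name, 30 of the 88 were proteins of the small subunit and 42 of the large subunit. A further 8 were paralogs, 7 were pseudogene names and 1 was Rps19bp1, which binds a ribosomal protein but is not one. The rule used no measured ratio.

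Each array compared SOX11-induced epidermis with that of a littermate control, so that the 2 arrays were 2 littermate pairs, which the methods describe as matched by sex. Control pups carried K14-rtTA alone, and SOX11-induced pups carried K14-rtTA;TRE-Sox11-FLAG. All pups were FVB/N, were labelled P4.5 and had received doxycycline (Dox) for 12 h, so that the activator rtTA and the drug were shared by both groups. The keratin 14 promoter (K14) makes rtTA mainly in basal keratinocytes, while RNA came from whole epidermis, and with 2 arrays every estimate below is of low precision. The sources used here do not say whether an RNA sample came from 1 pup or from several. Control RNA was labelled with Cy3 and SOX11 RNA with Cy5 on both arrays, so that dye and genotype cannot be told apart within a probe. The methods describe a colour swap that the labels do not show. Log2 ratios are SOX11 over control, and a positive value means a brighter SOX11 channel.

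Ribosomes are assembled in the nucleolus from ribosomal RNA and ribosomal proteins into a small subunit, which decodes the message, and a large subunit, which joins amino acids. Ribosomal protein messages are among the most abundant of a cell, begin with a run of pyrimidines, and are translated under the control of the mTOR kinase. Their genes are regarded as closely co-regulated, and an excess of free ribosomal proteins such as RPL5 and RPL11 can bind MDM2 and so affect p53.

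Of the 192 member probes 184 passed the background filter in all channels, where 19095 of all 55676 tested probes did. The chosen probes are the brightest of each name by the rule, and 84 of 88 passed. In the control channel these 84 ran from 43.6 to 78211 scanner units in pair 1 and from 57.5 to 86098 in pair 2, with medians of 25230 and 29168, after the local background was subtracted. In the SOX11 channel the medians were 62180 and 78282. The red channel was thus the brighter one on both arrays, which the scaling of an array removes in part, and how it is removed decides the level of the whole family, as described below. None of the 192 member probes was saturated. The 4 names not above background were Rpl3l, Rpl10l, Rpl39l and the pseudogene Rps15a-ps6.

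Among the markers of other cells, the hair shaft keratins stood apart between the pairs, since the median over 12 genes was 2.25 for pair 1 but -0.39 for pair 2. The 7 melanocyte markers had a median of 0.59 for pair 1 and 0.04 for pair 2, and the 9 fibroblast markers, of which 5 were above background, had 0.02 and 0.52. Medians over the mean of both pairs were -0.12 for 10 keratinocyte markers and -0.08 for 9 leukocyte markers after loess, while both were above 0 after median centring. Of 5 endothelial markers 1, the receptor Kdr, was above background, with log2 ratios of -0.17 and -0.16. Of the fibroblast markers, Fbln1, a matrix glycoprotein, was called higher (log2 ratio 0.62, adjusted p = 0.0499, limma, but 0.57 with adjusted p = 0.093 from median spot brightness) and Dcn, the matrix proteoglycan decorin, was called lower (-0.79, adjusted p = 0.026, limma, but -0.24 and not past the threshold after median centring). The part of these markers in the ribosomal protein values was not tested. In bulk epidermis, fewer cells of a type and less RNA per cell cannot be told apart. Neither Sox11 probe rose well above background in any channel. The transgene holds the coding region of Sox11 alone, and whether these probes lie within it was not tested, so that they do not check the labels.

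After loess, which centres the log2 ratios of an array along a smooth curve against brightness, no ribosomal protein name passed the test. The 88 means ran from -0.33 for Rpl13a to 0.34 for Rpl29, with a median of 0.02. For pair 1 alone the median was 0.04, and for pair 2 it was 0.00. Beside it, the median over all 55676 tested probes was 0.01 and that over the 19095 tested probes above background was 0.02. By limma's moderated test, adjusted with Benjamini-Hochberg over all tested probes, 0 of 88 names were past an adjusted p of 0.05, the smallest being 0.237 for Rpl29, and 1 had an unadjusted p under 0.05. Over all tested probes 4.39% were past that threshold, 2.99% higher and 1.41% lower, and the share was 9.28% among probes above background. With a log2 ratio past 1.5 as well, the share was 0.453% of all probes and 0 members were among them. An unadjusted p under 0.05 was found for 11722 of all 55676 tested probes (limma). The p-values rest on the spread between 2 arrays and, more so, on a prior variance that limma takes over all tested probes. An exact sign-flip test of 2 pairs cannot give a p under 0.5.

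The values of the 84 names above background lay close together. Their means had an SD over names of 0.140, against 0.440 over all probes above background. The SD between the pairs of a single name had a median of 0.06, against 0.13 over all probes above background. Both pairs were positive for 35 of the 84 names and both negative for 29, while 20 had opposite signs. The 95% intervals of the limma fit reached from 0.336 to 0.358 on either side of a mean, and over the 84 names they stayed between -0.66 and 0.67. By these intervals, which are not adjusted for the number of probes, a log2 change under 0.336 in a single member could not be told from 0. The threshold on the adjusted p asked for more, since Rpl29 at 0.34 had an adjusted p of 0.237 (limma). A p that missed the threshold does not show that a member was unaltered.

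**Figure D1:**
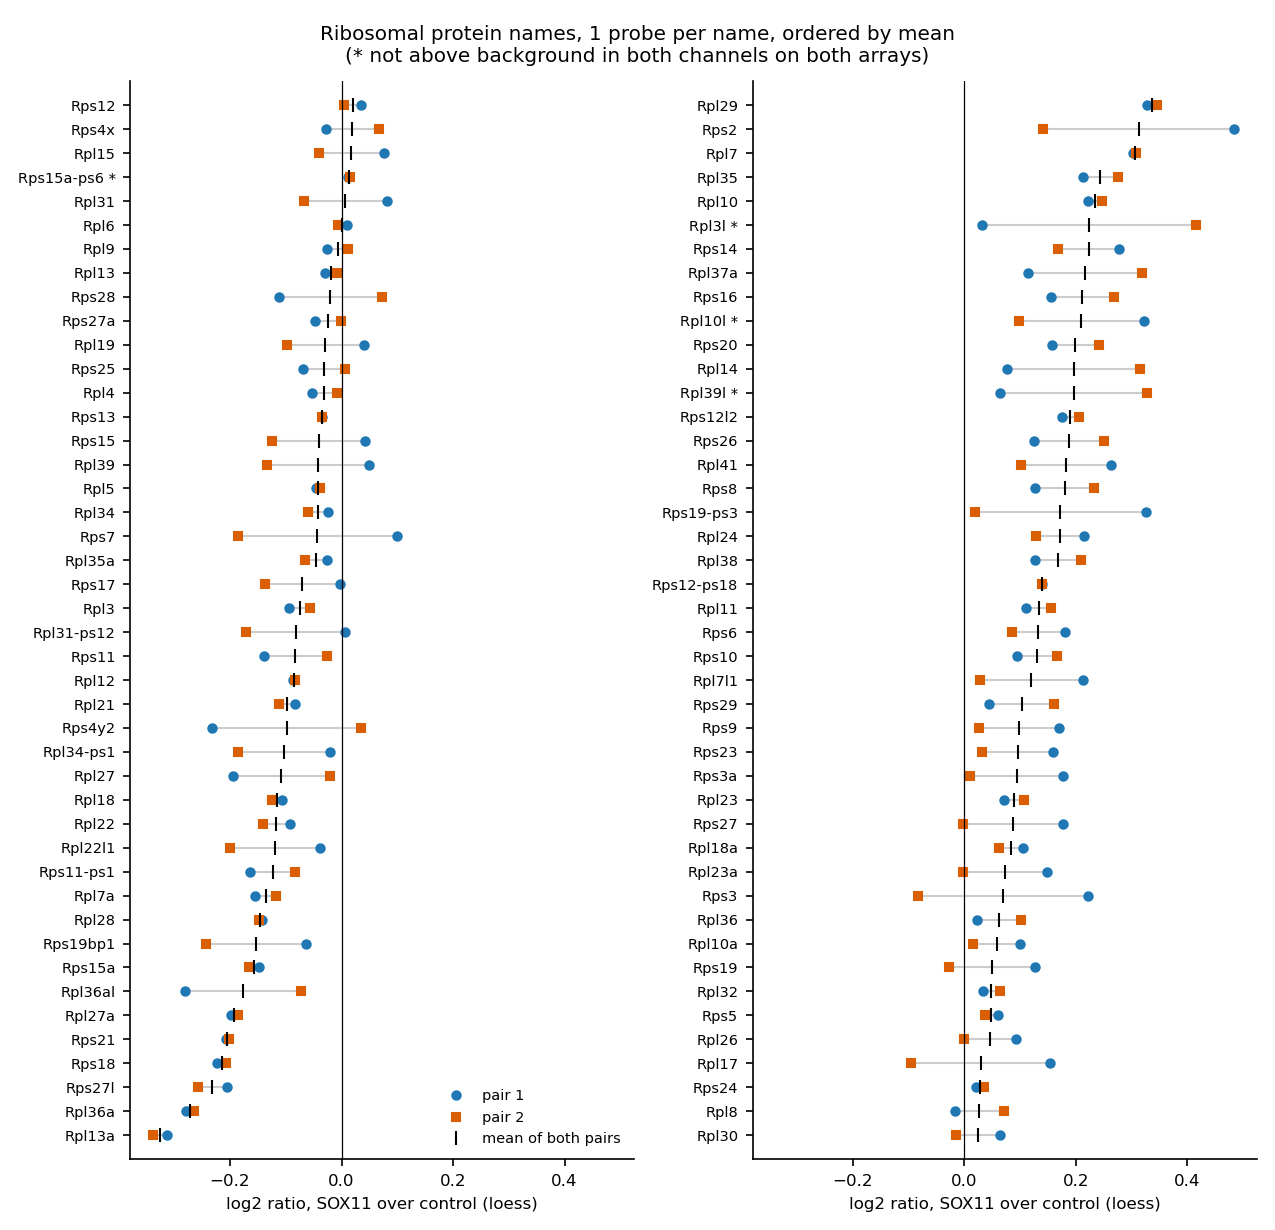
Log2 ratio of SOX11 over control after loess (x axis) for each of the 88 ribosomal protein names (y axis, ordered by mean from lower left to upper right), with circles for pair 1, squares for pair 2 and a tick for their mean. All means lie between -0.33 and 0.34, and the median SD between the pairs of a name is 0.06.

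By subunit, the 30 small subunit names had a median mean log2 ratio of 0.05 and the 42 large subunit names one of 0.01. In pair 1 the medians were 0.08 and 0.04, and in pair 2 they were 0.02 and -0.01. Directions given here and in what follows are those after loess, since after median centring the 84 names above background were all above 0. Each subunit spanned 0, from -0.21 to 0.31 for the small and from -0.33 to 0.34 for the large subunit. The 7 pseudogene names, whose probes can also bind the messages of the working genes, had a median of 0.01.

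The lowest name was Rpl13a, a large subunit protein also known for silencing of inflammatory messages once released from the ribosome. The probe lies on chr7:52381388-52381529, minus strand, of mm9. Its position is wider than its 60 bases, which places it across a splice junction. Its bases are printed to show what the array read:

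Rpl13a probe: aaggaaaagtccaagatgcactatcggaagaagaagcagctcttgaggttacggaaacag

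Control brightness of this probe was 13062 in pair 1 and 17411 in pair 2, and SOX11 brightness was 23148 and 34936, in scanner units after subtraction of the local background. After loess its log2 ratio was -0.31 in pair 1 and -0.34 in pair 2, a mean of -0.33 ± 0.02 (SD, n = 2) with an adjusted p of 0.25 (limma). Both pairs were low by nearly the same amount, and the difference still missed the threshold over all probes. The other Rpl13a probes on the array had means of -0.07 and -0.11.

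Rpl36a, a large subunit protein encoded on the X chromosome, followed. Its control brightness was 12766 and 13438 and its SOX11 brightness 23155 and 28108. The pairs gave log2 ratios of -0.28 and -0.26 (adjusted p = 0.334, limma). A neighbouring probe covers nearly the same bases, and both stretches are shown with the differing bases in capitals, at chrX:131122535-131122594 for the neighbour and chrX:131122540-131122599 for the chosen probe:

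Rpl36a neighbour: gcagttgttcTtttgggagggaataAatta
Rpl36a chosen: gcagttgttcGtttgggagggaataCatta

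The neighbour gave -0.22 and -0.25, so that 2 probes that differ at 2 of 55 aligned bases read alike in both pairs. The remaining Rpl36a probe, also above background, was nearer 0, at 0.01 and -0.13 (mean -0.06).

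Next came Rps27l, Rps18 and Rps21. Rps27l is a paralog of Rps27 that p53 is known to induce. It gave -0.21 and -0.26 in the pairs, with control brightness of 9009 and 8570 and SOX11 brightness of 16976 and 17677 (adjusted p = 0.412, limma). Rps18, a protein of the head of the small subunit, had a log2 ratio of -0.22 and -0.21 from control brightness of 25467 and 26743 and SOX11 brightness of 49426 and 59881 (adjusted p = 0.448, limma). Rps21, a small subunit protein, gave -0.21 and -0.20, with control brightness of 425 and 473 and SOX11 brightness of 718 and 909 (adjusted p = 0.471, limma). In these 3 names the pairs lay closer to each other than to 0.

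The highest name was Rpl29, a large subunit protein also described as a heparin-binding protein. Control brightness was 58358 in pair 1 and 59384 in pair 2, and SOX11 brightness was 172936 and 203034. The log2 ratio was 0.33 and 0.35, a mean of 0.34 ± 0.01 (SD, n = 2) with an adjusted p of 0.237 (limma). The second Rpl29 probe did not follow it, with 0.10 and -0.12 (mean -0.01).

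Rps2, which lines the entry of the message channel, and Rpl7, a large subunit protein, had the next highest means. Rps2 gave 0.48 in pair 1 and 0.14 in pair 2, from control brightness of 13449 and 19365 and SOX11 brightness of 41934 and 54778 (adjusted p = 0.298, limma). The pairs of Rps2 were far apart, and its second probe, placed at another site of the same chromosome, gave 0.00 and -0.17. Rpl7 gave 0.30 and 0.31 from control brightness of 24798 and 25764 and SOX11 brightness of 69668 and 82967 (adjusted p = 0.279, limma). The other Rpl7 probes at the gene were lower, at 0.13 and 0.10, and at 0.12 and 0.03. A further Rpl7 probe is placed by the file on chromosome 11, away from the gene, and gave 0.17 and 0.13. The chosen probe and the one on chromosome 11 differ at 4 of 55 aligned bases. Stretches of both are printed with the base that differs within them in capitals, at chr1:16091382-16091438 and chr11:29452014-29452073, both on the minus strand of mm9:

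Rpl7 at the gene: ccatTgtatttttgtaatctggtcagttaa
Rpl7 on chromosome 11: ccatGgtatttttgtaatctggtcagttaa

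Rpl35, next to the exit of the peptide tunnel, gave 0.21 and 0.28 from control brightness of 61756 and 58286 and SOX11 brightness of 169152 and 189540 (adjusted p = 0.386, limma). Rpl10, needed for the last step of large subunit maturation, gave 0.22 and 0.25 from control brightness of 52810 and 52891 and SOX11 brightness of 144625 and 167792 (adjusted p = 0.405, limma). The other Rpl10 probes were lower, at 0.06 and 0.18, and at 0.04 and 0.13. Of the 5 highest names, Rps2 was the one whose pairs differed by more than the smaller of its values.

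Members with a known role outside the ribosome, or with a known disease or phenotype, did not pass the threshold either. Means of those named here ran from -0.04 for Rpl5 to 0.22 for Rps14. Rps6, the small subunit protein phosphorylated downstream of mTOR, gave 0.18 and 0.09, from control brightness of 20143 and 34058 and SOX11 brightness of 51478 and 94687 (adjusted p = 0.658, limma). Rpl5 and Rpl11 bind MDM2 together with a ribosomal RNA. Rpl5 gave -0.05 and -0.04 in the pairs (adjusted p = 0.903, limma). Rpl11 gave 0.11 and 0.16 (adjusted p = 0.654, limma). The other Rpl11 probes, also above background, lay below 0, at -0.13 and -0.05 for one and -0.16 and -0.11 for the other. The 95% intervals of the chosen probes held 0, from -0.38 to 0.29 for Rpl5 and from -0.20 to 0.47 for Rpl11. Rps19, the gene most often mutated in Diamond-Blackfan anaemia, gave 0.13 and -0.03. Rps14, lost in a human myelodysplastic syndrome, gave 0.28 and 0.17. Rps27a, which is made as a fusion with ubiquitin, gave -0.05 and 0.00. Rpl38, mutated in tail short mice, gave 0.13 and 0.21, and Rpl24, mutated in belly spot and tail mice, gave 0.22 and 0.13. The second Rpl24 probe was on the other side of 0, at -0.07 and -0.13. The adjusted p of these 5 ran from 0.432 for Rps14 to 0.948 for Rps27a (limma).

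Genes of the family are described as starting transcription at a C within a pyrimidine run, the sequence that makes their messages sensitive to mTOR. RefSeq promoter windows (GRCm38.p6, 250 bases before to 50 after the annotated start) matched 61 member genes in 73 windows. A C at the start followed by 4 pyrimidines was found in 12 of 73 member windows (16.4%), against 2.51% of all 32851 windows. The 5 windows below show it for members named here, from 15 bases before the start to 15 after it, with the pyrimidine run in capitals, on chr4:86857353-86857382 minus, chr11:114668565-114668594 plus, chr2:39005117-39005146 minus, chr17:33955651-33955680 minus and chr2:180257364-180257393 plus:

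Rps6: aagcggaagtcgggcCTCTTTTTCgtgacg
Rpl38: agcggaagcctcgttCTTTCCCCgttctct
Rpl35: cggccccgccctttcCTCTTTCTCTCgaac
Rps18: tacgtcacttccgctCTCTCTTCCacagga
Rps21: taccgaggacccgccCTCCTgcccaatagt

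The starts of Rpl35, among the highest names, and of Rps18 and Rps21, among the lowest, all begin with such a run. Log2 means of the 12 genes with it ran from -0.21 to 0.24 (median 0.05), and those of the other matched genes from -0.33 to 0.31 (median -0.01). The ETS-type motif CCGGAAG, read on both strands, was found in 31.5% of member windows and 8.86% of all windows. The SOX-type motif ACAAAG, on both strands, was found in 15.1% of member windows and 18.7% of all windows, and TATAAA, on both strands, in 9.59% and 13.6%. The median log2 ratio was -0.04 for member genes with ACAAAG and 0.01 for those without it. A match is a description of these letters in these windows and not a binding site.

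Paralogs can replace a ribosomal protein or differ from it in tissue use, and 8 were set beside the usual protein. Rpl22l1, a paralog that RPL22 is known to hold down, gave -0.04 in pair 1 and -0.20 in pair 2, and Rpl22 gave -0.09 and -0.14. The difference, paralog minus Rpl22, was 0.05 and -0.06. The second Rpl22 probe, also above background, was lower, at -0.19 and -0.36, so that this difference depends on the probe. Rps27l and Rps27 were farther apart, at -0.21 and -0.26 for Rps27l against 0.18 and 0.00 for Rps27, a difference of -0.38 and -0.25. This was the widest gap among the 5 paralogs above background, with both pairs on the same side, and it was not tested. The chosen Rps27 probe is placed on chromosome 9 and not at the gene. The other Rps27 probes, placed there as well, gave -0.03 and -0.14, 0.03 and -0.11, and 0.16 and -0.02, so that the gap depends on the probe.

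Rpl36al, a copy of Rpl36a on an autosome, gave -0.28 and -0.07 against -0.28 and -0.26 for Rpl36a. Rpl7l1, a nucleolar relative of Rpl7, gave 0.21 and 0.03 against 0.30 and 0.31. The name Rps4y2 of the array, now Rps4l, gave -0.23 and 0.04 against -0.03 and 0.07 for Rps4x. The chosen Rps4x probe is placed on chromosome 5 and not at the gene. The other Rps4x probe, placed on chromosome 3, gave -0.17 and -0.18. None of the paralog differences was tested. Rpl3l, known from striated muscle, Rpl10l, known from the testis, and Rpl39l, known from the testis as well, were not well above background in either group, with brightness of at most 14.2 units in all channels, while Rpl3, Rpl10 and Rpl39 were well above it. Rpl3, from a probe placed on chromosome 5 and not at the gene, gave -0.09 and -0.06, and Rpl39 gave 0.05 and -0.13. Rps19bp1, a regulator of the deacetylase SIRT1, gave -0.06 and -0.24 (adjusted p = 0.61, limma).

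Probes of one name allowed a check within an array. Over the 61 names with more than 1 probe above background (161 probes, at most 7 for a name), probe means of a name spanned a median of 0.17, and 30 names had probes on both sides of 0. The spread of probes within a name (SD 0.164, or 0.122 without Rpl6) was larger than that between the means of names (SD 0.108). The order of single names above therefore rests in part on which probe was read.

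Rpl6, a large subunit protein, had the widest span. Of its 4 probes, 3 were bright and near 0. The chosen one, at chr5:121658915-121658974, had control brightness of 24992 and 27051 and SOX11 brightness of 57133 and 69821, and log2 ratios of 0.01 and -0.01. The other bright probes gave -0.17 and -0.16, and -0.04 and -0.14. The fourth, at chr5:121659155-121659214, was dim, with control brightness of 63.4 and 385 and SOX11 brightness of 502 and 1222. It gave 1.91 in pair 1 and 0.50 in pair 2, a mean of 1.20 ± 1.00 (SD, n = 2), and was the single member probe past the threshold (adjusted p = 0.042, limma), where 2.99% of all tested probes were called higher. Its pairs differed by more than its mean, and no other Rpl6 probe went with it. The call was lost when dim probes were left out of the fit (mean 1.20, adjusted p = 0.078, limma) and with the processed signals of the scanner software (mean 1.33, adjusted p = 0.376, limma), where 0 probes of the array were called, while the mean was as large in both. Stretches of the dim and of the chosen probe are shown because the same name stands for both:

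Rpl6 dim: ttagaggcacatacactgccatggctgcct
Rpl6 chosen: ggatgtatcctcacaaactggtcttctaaa

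**Figure D2:**
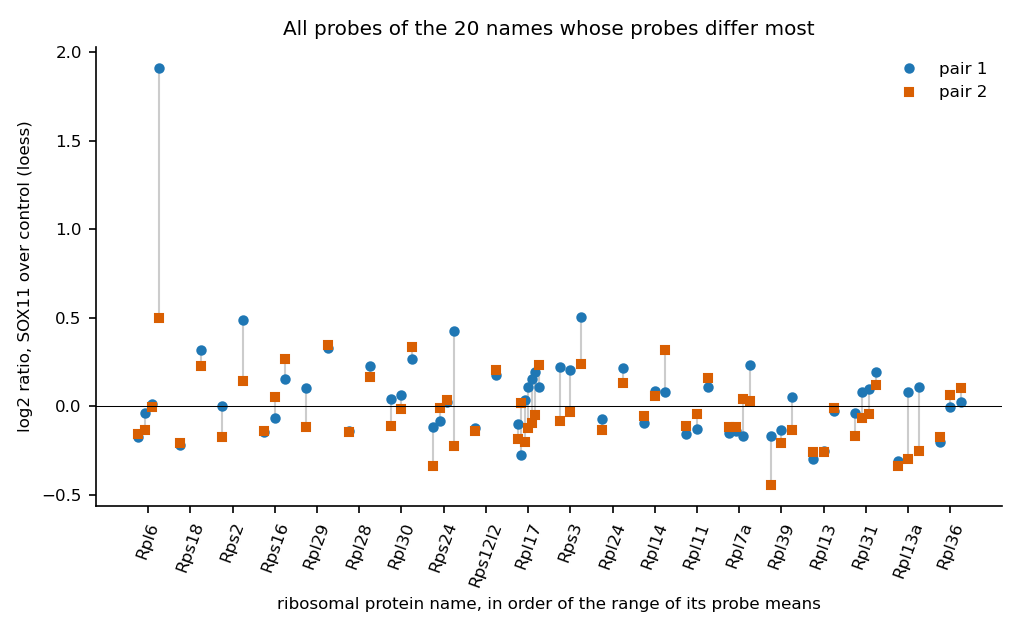
Log2 ratio of SOX11 over control after loess (y axis) of every probe above background for the 20 ribosomal protein names with the widest range of probe means (x axis), with circles for pair 1 and squares for pair 2 joined by a line. The dim Rpl6 probe at 1.91 and 0.50 stands apart, and the next widest range, that of Rps18, is 0.486.

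The span of Rps18, 0.486, was the next widest. Its chosen probe was at -0.22 and -0.21, and the other, at 7141 and 8832 units in the controls and 19294 and 25699 in the SOX11 channel, was at 0.32 and 0.23 (adjusted p = 0.336, limma). These Rps18 probes, on chr17:34089041-34089202 and chr17:34092060-34092119, lay on opposite sides of 0 in both pairs:

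Rps18 chosen: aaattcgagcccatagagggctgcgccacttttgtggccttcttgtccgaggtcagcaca
Rps18 other: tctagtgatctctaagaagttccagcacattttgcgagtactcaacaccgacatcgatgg

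Probes can also read copies elsewhere in the genome. Of 86 chosen probes whose position and gene could be compared, 11 were placed on another chromosome than their gene. All 27 such probes among the members had means from -0.28 to 0.25, with a median of -0.04. On the array, 63 probes of other names shared at least 30 bases with a member probe, and these ran from -0.23 to 0.27 with 0 past the threshold. An example is the pseudogene name Rps12l2, whose probe at chr8:37089026-37089085 differs from the Rps12 probe at chr10:23505428-23505711 at 3 of 56 aligned bases, in capitals:

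Rps12: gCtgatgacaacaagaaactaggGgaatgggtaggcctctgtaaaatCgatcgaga
Rps12l2: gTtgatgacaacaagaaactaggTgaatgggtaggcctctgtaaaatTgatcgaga

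Rps12, a small subunit protein, gave 0.04 and 0.01, and this Rps12l2 probe gave -0.12 and -0.14. Which of the sites supplied the RNA that bound cannot be told apart from these values.

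The level of the family depended on how an array was scaled. With each array centred on its median in place of loess, the median of the 88 names was 0.78 in pair 1 and 0.84 in pair 2. Under this scaling 82 of 88 names were past an adjusted p of 0.05 in limma, all higher, where 21.8% of all tested probes and 57.5% of those above background were called higher. All 84 names above background were then above 0 in both pairs, from 0.38 for Rps21 to 1.19 for Rpl29. The median over all probes above background moved as well, to 0.49 in pair 1 and 0.57 in pair 2. With loess fitted while the member probes carried no weight, the median was 0.02 and 0 names passed.

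**Figure D3:**
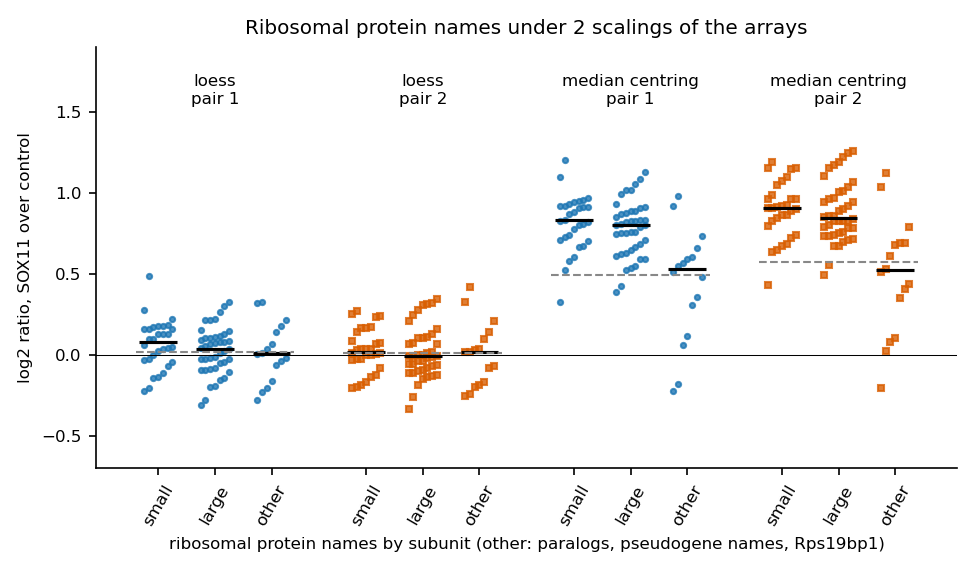
Log2 ratio of SOX11 over control (y axis) of the 88 ribosomal protein names after loess (left) and after median centring (right), for small subunit, large subunit and other names in each pair, with black bars for medians and dashed lines for the median of all probes above background. The names sit around 0 after loess and around 0.78 in pair 1 and 0.84 in pair 2 after median centring.

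Probes of other genes with the same brightness moved with the members. In the class with a mean log2 brightness from 15 to 16, 177 other probes had medians of 0.76 and 0.85 after median centring, and 55 member probes had 0.78 and 0.84. In the brightest class, from 16, 137 other probes had 0.98 and 1.14 and 35 member probes had 0.88 and 1.04. In the dimmest class shown, from 6 to 7, the medians were 0.30 and 0.35 over 5085 other probes. From a log2 brightness of 14 upward, 0 of 129 member probes were past the threshold after loess, while 23 of 632 other probes as bright (3.64%) were, and the SD of the means was 0.130 for members and 0.340 for the others. Over the 84 names, brightness and mean log2 ratio after loess had a Pearson r of 0.33 and a Spearman rho of 0.61, a description across genes of the same arrays.

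**Figure D4:**
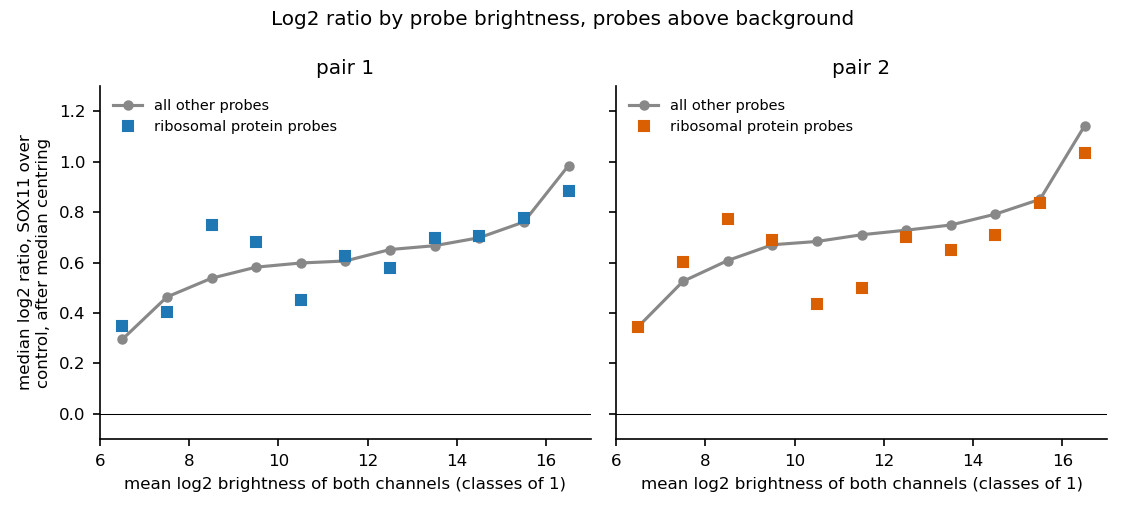
Median log2 ratio of SOX11 over control after median centring (y axis) against mean log2 brightness in classes of 1 (x axis), for ribosomal protein probes (squares) and all other probes of these classes (grey line), in pair 1 and pair 2. Classes start at a brightness of 6 and were cut by brightness alone, without the background filter that the title names. The other probes rise from class to class, to 0.98 and 1.14 in the brightest, while member medians vary between the dimmer classes, which hold few member probes, and reach 0.88 and 1.04 in the brightest.

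The pairs ranked the members alike in part. Log2 ratios of pair 1 and pair 2 had a Pearson r of 0.66 over the 84 names, and 0.68 over all 19095 probes above background. The 2 arrays share dye orientation and probes, so that this is a description of the arrays. The GC content of a probe and the mean log2 ratio had a Pearson r of 0.17 over the 84 names.

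Ribosomal proteins whose names fall outside the rule lay within the range of the members. Rplp0, Rplp1 and Rplp2 form the stalk that recruits elongation factors. Rplp0 gave 0.19 and 0.25 in the pairs, Rplp1 gave -0.01 and 0.10, and Rplp2 gave -0.12 and -0.02. Rpsa, which is also a laminin receptor, gave -0.17 and -0.08, and Fau, a fusion of a ubiquitin-like protein with RPS30, gave -0.09 and -0.09. Gnb2l1, the scaffold RACK1 of the small subunit, gave 0.28 and 0.29 (adjusted p = 0.311, limma). Over the 7 genes of this list, all above background, 0 passed in limma, and 0 also had an unadjusted p under 0.05. Of all probes above background 9.28% passed. The median of the list was 0.04, or 0.89 after median centring. All 7 were then called higher, beside 57.5% of all probes above background.

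Factors that work with the ribosome were counted from lists. Of 11 elongation genes and 37 initiation genes, 0 were called, with medians of 0.04 and 0.09. Among all probes above background, as 10 of the 11 and 36 of the 37 were, 9.28% were called. Eef1a1, which brings aminoacyl-tRNA to the ribosome, gave 0.07 and 0.00, and Eef2, which drives translocation, gave 0.22 and -0.03. Tpt1, a growth-related protein whose message also starts with a pyrimidine run, gave 0.18 and 0.07. After median centring 8 of the 11 elongation genes were called higher and 1 lower, with a median of 0.81. Of the 37 initiation genes 32 were then called higher and 0 lower, with a median of 0.74. The shares of all probes above background were 57.5% higher and 1.05% lower.

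Genes of ribosome assembly were mostly below 0 after loess, which was not tested against the ribosomal proteins. Of 60 biogenesis genes, 40 were negative and 10 positive in both pairs, the median was -0.17, and 3 (5.0%) were called lower and 0 higher, where 1.41% of all tested probes were called lower. After median centring 25 of the 60 were called higher and 1 lower, where 21.8% of all tested probes were called higher and 11.4% lower. Of the 60 genes 57 were above background, and 3.25% of all probes above background were called lower after loess. After median centring 57.5% of all probes above background were called higher and 1.05% lower. Tcof1, the nucleolar protein treacle, gave -0.66 and -0.92 from control brightness of 1122 and 970 and SOX11 brightness of 1416 and 1144 (adjusted p = 0.023, limma). Nat10, an RNA acetyltransferase of the nucleolus, named after its values were seen, gave -0.81 and -0.73 (adjusted p = 0.023, limma). The other call, Lyar, a nucleolar growth regulator, rested on a probe not well above background in either group, and no ratio is given for it. Ncl, Fbl and Npm1, the abundant nucleolar proteins nucleolin, fibrillarin and nucleophosmin, had means of -0.61, -0.48 and -0.22 and did not pass (adjusted p from 0.054 to 0.459, limma). After median centring the biogenesis median was 0.41, Ncl and Fbl were at 0.06 and 0.12, Npm1 was called higher at 0.49 and Tcof1 and Nat10 were at -0.18 and -0.37, neither of them past the threshold.

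Of 15 RNA polymerase I genes, which transcribe ribosomal RNA, 1 was called in each direction and the median was -0.24. Among all probes above background, as 12 of the 15 were, 6.03% were called higher and 3.25% lower. After median centring 6 of the 15 were called higher and 1 lower. The shares of all probes above background were then 57.5% and 1.05%. Polr1a, the catalytic subunit, gave -0.78 and -0.66 (adjusted p = 0.03, limma), and Ubtf, which opens the ribosomal DNA for transcription, gave 0.63 and 0.63 (adjusted p = 0.049, limma). From median spot brightness Ubtf was at 0.64 and did not pass (adjusted p = 0.066, limma). The median of this list was 0.23 after median centring, where Polr1a was at -0.15 and Ubtf at 1.40.

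Of 26 growth control genes, 1 was called higher and 1 lower, with a median of -0.12. Among all probes above background, as 22 of the 26 were, 6.03% were called higher and 3.25% lower. After median centring 12 were called higher and 0 lower, and the median was 0.39. The shares of all probes above background were then 57.5% and 1.05%. Rhebl1, a relative of the mTOR activator RHEB, gave 0.78 and 0.58 from a dim probe (adjusted p = 0.039, limma, but 0.069 from median spot brightness, with a mean of 0.65), and Eif4ebp1, the repressor of cap binding that mTOR inactivates, gave -0.56 and -0.84 (adjusted p = 0.038, limma). Eif4ebp1 was at -0.09 after median centring and did not pass there. Myc, which drives ribosome production in many cells, gave -0.15 and -0.19 (adjusted p = 0.552, limma), and Mycn gave 0.82 and -0.09.

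Among 10 genes of the p53 response, all above background, 1 was called lower and 0 higher, with a median of 0.00. Of all probes above background 3.25% were called lower and 6.03% higher. After median centring 6 of the 10 were called higher and 1 lower. The shares of all probes above background were then 57.5% and 1.05%. Bbc3, the cell death protein PUMA, gave -1.16 and -0.94 from control brightness of 455 and 495 and SOX11 brightness of 381 and 553 (adjusted p = 0.00579, limma), and it was also called lower after median centring at -0.48. Mdm2, the ubiquitin ligase of p53, gave 0.25 and 0.36 (adjusted p = 0.281, limma), and Cdkn1a, the cell cycle inhibitor p21, gave -0.03 and -0.12 (adjusted p = 0.823, limma).

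The proteins of the mitochondrial ribosome, 76 names beginning with Mrpl or Mrps, had a median of -0.09 and ran from -0.53 to 0.61. They had 0 calls, and 12 had an unadjusted p under 0.05 (limma). Of these names 75 were above background. Of all 19095 probes above background 9.28% were called, and 5759 had an unadjusted p under 0.05 (limma). The medians of the mitochondrial names in the single pairs were -0.10 and -0.09. Their SD over names was 0.233, against 0.141 for the 88 cytosolic names. After median centring their median was 0.49 and 45 of 76 were called higher, where 57.5% of all probes above background were. The difference between the 2 families was not tested. Over the 7 lists above and these mitochondrial names, 8 of 242 genes were called after loess, beside the 4.39% of all tested probes. Of the 242 genes 229 were above background, and the share among all probes above background was 9.28%.

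**Figure D5:**
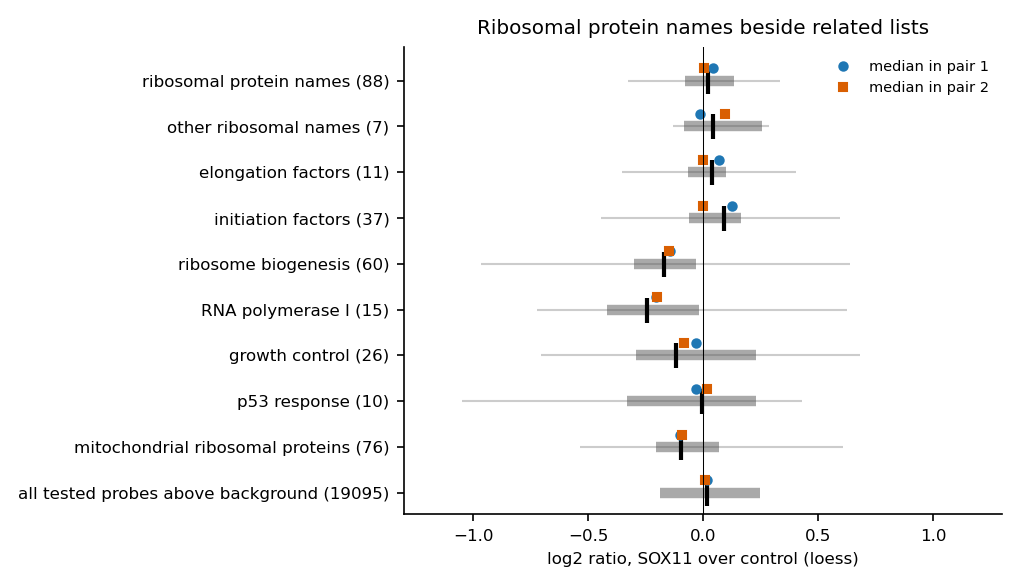
Mean log2 ratio of SOX11 over control after loess (x axis) for the ribosomal protein names and related lists (y axis, number of genes in brackets), with a black tick for the median, a grey bar for the middle 50% of genes, a thin line for the full range (not drawn for all probes), and the medians of pair 1 (circle) and pair 2 (square) above. The ribosomal protein median is 0.02 and that of ribosome biogenesis is -0.17.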

How the data were processed

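Arrays with 2 colours, from 2 littermate pairs, were analysed. The intensity values that the authors deposited are spot and local background brightness in scanner units, made per the file headers with Agilent Feature Extraction 10.7.3.1, with probe positions on mm9, and the processed signals of the same software, already background-subtracted and dye-normalized. The deposited series table holds log2 ratios of Cy5 over Cy3 that the authors made with normexp, an offset of 16 and loess in limma. Rebuilt from median spot brightness, these matched with r of at least 0.99999. The methods also name a ComBat step for dye.

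Mean spot brightness was corrected by normexp (offset 16) and centred by loess with control spots at weight 0, in R 4.3.3 with limma 3.58.1. Flagged spots (194 and 186) were left out and spots of a probe averaged. An intercept-only limma fit with eBayes gave Benjamini-Hochberg adjusted p-values over 55676 probes, called under 0.05. Calls from 2 arrays rest on the prior of the moderated variance (SD 0.223, 8.34 degrees of freedom). Brightness is printed less local background. A probe was above background where at least 50% of its spots were well above it in both channels of both arrays. The fit was tested on simulated data.

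Ribosomal protein names were taken from the array, with current symbols from RefSeq (GRCm38.p6) for 86 of 88. Lists were hand-written: other ribosomal names, elongation, initiation, biogenesis, RNA polymerase I, growth control, p53 response and markers of keratinocytes, hair shaft, fibroblasts, leukocytes, melanocytes and endothelium. Members and lists were chosen with earlier results of these data known. Genes named were any member past the threshold, the 5 highest and 5 lowest above background, paralogs with their counterparts, Rps6, Rps19, Rpl5, Rpl11, Rps27a, Rpl38, Rpl24 and Rps14, the other ribosomal names (1 of them is not reported here), names whose probes differed by over 1, and in the lists Myc, Mycn, Ncl, Npm1, Fbl, Eef1a1, Eef2, Tpt1, Mdm2, Cdkn1a and at most 2 called genes per direction. Alternatives were an offset of 50, median centring, median spot brightness, processed signals, loess without members, probes above background, the series table, all probes of a name, strict ribosomal proteins, saturated probes left out and 1 array left out.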

Additional observations from a re-analysis of the deposited data

How the results depend on the processing

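The count of 0 ribosomal protein names past the threshold and their median log2 ratio near 0 (0.00 to 0.04) were found with an offset of 50, median spot brightness, the processed signals, loess without the members, probes above background alone, the series table, the mean of all probes of a name and the ribosomal proteins in the strict sense, and, for the median, with either pair alone. These settings all used loess, other than the processed signals, which the scanner software had already dye-normalized. With the processed signals 0 of all tested probes were called, so that the count of members could not differ from 0 there. Leaving out saturated probes could change nothing, since no member probe was saturated. Median centring changed the count and the median, to 82 names past the threshold and a median of 0.81. The cause was not tested. The small subunit median less the large subunit median, 0.037, was 0.050 after median centring and 0.010 with the processed signals, and ran from 0.027 to 0.041 with 1 pair left out.

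Over the related lists, 8 genes were called in the reported fit, 39 with an offset of 50, 145 after median centring, 0 with the processed signals and 15 with probes above background alone, where fewer probes were tested. Of all probes above background 57.5% were called higher after median centring. With the processed signals 0 of all tested probes were called, while 9764 had an unadjusted p under 0.05. Calls of Ubtf, Rhebl1 and Fbln1 were lost with median spot brightness and with the series table (adjusted p from 0.066 to 0.093, limma), with log2 ratios of 0.64, 0.65 and 0.57 in the former.

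After median centring the sign turned and the value passed the threshold for Rpl22 (0.68), Rpl22l1 (0.63), Rpl3 (0.75), Rpl36a (0.49), Rpl36al (0.52), Rpl39 (0.75), Rpl5 (0.66), Rps18 (0.58), Rps27a (0.82), Rps27l (0.50), Rps4y2 (0.50), Cdkn1a (0.63), Fau (0.77), Npm1 (0.49), Rplp2 (0.77) and Rpsa (0.71). In no other setting did a named gene change sign with a value past the threshold.

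The reported fit is already on paired ratios, 1 for each littermate pair, so that a replicate block can be neither added nor removed, and 2 arrays leave no degrees of freedom for the slide as a block. With 1 array left out a single ratio remains, which has no test. Signals at background limit Rpl3l, Rpl10l, Rpl39l and Rps15a-ps6.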
